A study of Homo sapiens with 12 samples.

Results

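The mitochondrial protein import machinery was followed as 34 genes taken by symbol. They encode the translocase of the outer membrane (9 genes, the TOM complex with its co-chaperone and paralogue), the assembly machinery of the outer membrane (3), the small TIM chaperones of the intermembrane space (6), the carrier translocase TIM22 (2), the presequence translocase TIM23 (5), the import motor (5), the presequence peptidase (2) and the disulfide relay (2). All 34 were found, each as 1 of the 17786 rows of the count table, and all 34 passed the filter on low counts that left 13598 genes.

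The cells were K562, a line from chronic myelogenous leukaemia with erythroid features, and messenger RNA was sequenced from 12 libraries. One group of 4 was untreated, 4 libraries came from cells given 2 mM alpha-ketobutyrate (AKB) for 24 h, and 4 from cells given 2 mM pyruvate for 24 h. The design asks how each acid changes expression against the untreated cells, and AKB and pyruvate can be compared at a matched dose and time. Both are 2-oxo acids, and AKB carries an extra methylene group. All groups were the same cell line in RPMI-1640 with fetal bovine serum and glutamine. Nothing in the labels tells whether the 4 libraries of a group come from separate cultures. The spread behind every p-value is that of these libraries alone and may be technical.

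Most mitochondrial proteins are encoded in the nucleus, made in the cytosol and imported. The TOM complex recognises precursors at the surface and passes them through its pore. Proteins with a cleavable presequence go on through TIM23, are pulled into the matrix by an ATP-driven motor built around mitochondrial HSP70, and lose the presequence to a peptidase. Small TIM chaperones carry hydrophobic carriers to TIM22 and beta-barrel proteins to the assembly machinery of the outer membrane, while cysteine-rich proteins of the intermembrane space are trapped there by a disulfide relay.

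Total counts ran from 15353200 to 21301073 per library. Erythroid markers summed to 11122 to 16704 counts per 1e6 (CPM, levels scaled to library size) in every library, while those of T cells, B cells and hepatocytes reached at most 3.49, 1.85 and 0.276 CPM and fibroblast markers 11.6 CPM. Of the monocyte markers, which summed to 28.5 to 52.7 CPM, LYZ was the highest. The epithelial markers summed to 423 to 504 CPM in untreated and AKB libraries and to 487 to 649 CPM with pyruvate, led by KRT8, and their part in the results was not tested. Pyruvate replicates 3 and 4 stood apart from the other 10 libraries along the GC content of genes, by 0.33 and 0.35 log2 CPM per 10 percentage points against -0.16 to 0.018. For that reason, calls that rest on pyruvate libraries are repeated without this pair and with a GC-content offset, which takes a smooth GC trend out of every library. The pair also stood apart along transcript length, at -0.093 and -0.073 log2 CPM per doubling of length, so with shorter transcripts higher. The other 10 libraries lay at -0.0097 to 0.042. The offset was not fitted on length, and the part of length in calls that pass with it was not tested. Leaving out the pair moved the log2 fold change with pyruvate by more than 0.1 for 20 of the 34 members.

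With AKB, none of the 34 import genes passed the test against untreated cells. By edgeR's quasi-likelihood test, at an adjusted p below 0.05 over all genes, 0 were higher and 0 were lower, where 1.37% of all genes were called higher and 0.603% lower. The test estimates the spread over all 12 libraries, so the spread of the pyruvate libraries also enters this comparison. An unadjusted p below 0.05 was reached by 0 in the higher and 2 in the lower direction, HSPA9 and TIMM8A, against 8.07% and 5.13% of all genes. DESeq2's Wald test called 0 higher and 1 lower, HSPA9, against 2.52% and 1.44%. The estimates of 27 of 34 genes lay below 0 and of 7 above it, against 48.6% and 51.4% of all genes, with a median log2 fold change of -0.11 against 0.0061 for all genes. The 95% interval of 30 of the 34 lay within a 1.5-fold change in either direction, and that of GRPEL1 ran from 0.899 to 1.12-fold. With the GC-content offset 0 members were higher and 2 lower (4.62% and 3.82% of all genes), and without pyruvate replicates 3 and 4 the counts were 0 and 1 (4.86% and 4.31%). The summed level of the 34 genes was 4041.5 to 4273 CPM in untreated libraries and 3775 to 3965 CPM with AKB, without overlap. HSPA9 and TOMM20 have the highest CPM and weigh most in that sum, and without them it was 2597 to 2682 CPM untreated and 2423 to 2531 CPM with AKB.

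With pyruvate, 1 import gene was higher and 0 were lower than in untreated cells, where 1.02% and 0.927% of all genes were called. TIMM23, the core channel subunit of the presequence translocase, rose 1.22-fold. Of 12 fits that each left out 1 library, this call held in 2, those without pyruvate replicate 1 or 2, with adjusted p from 0.00616 to 0.142 over the 12. An unadjusted p below 0.05 was reached by 8 in the higher and 4 in the lower direction, against 15% and 13.9% of all genes, and DESeq2's Wald test called 6 higher and 1 lower, against 9.74% and 6.49%. Estimates lay above 0 for 22 genes and below 0 for 12, against 49% and 51% of all genes, with a median of 0.057 against -0.0082. Summed over the 34 genes the level was 4049.5 to 4301 CPM, overlapping the untreated libraries. Without HSPA9 and TOMM20 it was 2613, 2810, 2951 and 2882.5 CPM in pyruvate replicates 1 to 4, against 2597 to 2682 CPM untreated. Only replicate 1 lay within that untreated range. Without pyruvate replicates 3 and 4, no member was called in either direction (0.151% of all genes higher and 0.56% lower) and the median was -0.013. With the GC-content offset 4 were higher and 1 lower (5.4% and 4.09%). The untreated libraries were shared by both comparisons.

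Against pyruvate, AKB gave 0 import genes higher and 4 lower, where 1.94% and 1.19% of all genes were called. These were 3 small TIM chaperones, TIMM13, TIMM10 and TIMM8B, and PMPCA, the alpha subunit of the presequence peptidase. With 1 library left out, all 4 calls held only without pyruvate replicate 1 or 2, and over the 12 such fits the adjusted p ran from 0.00626 to 0.104 for TIMM13, 0.00337 to 0.129 for TIMM10, 0.00371 to 0.134 for TIMM8B and 0.0121 to 0.131 for PMPCA. An unadjusted p below 0.05 was reached by 0 in the higher and 11 in the lower direction, against 12.2% and 12.1% of all genes, and DESeq2's Wald test called 0 higher and 8 lower, against 5.39% and 7.43%. The estimates of 28 of 34 lay below 0 and of 6 above it, against 46.3% and 53.7% of all genes, with a median of -0.14 against 0.025. For 25 of the 34 genes the 95% interval of the difference lay within 1.5-fold, and a p above the threshold does not show that the acids act alike on the others. With the GC-content offset 0 members were higher and 11 lower (7.16% and 7.41% of all genes). Without pyruvate replicates 3 and 4, 0 were higher and 2 lower (2.52% and 1.84%), TIMM13 and PMPCA.

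**Figure D1:**
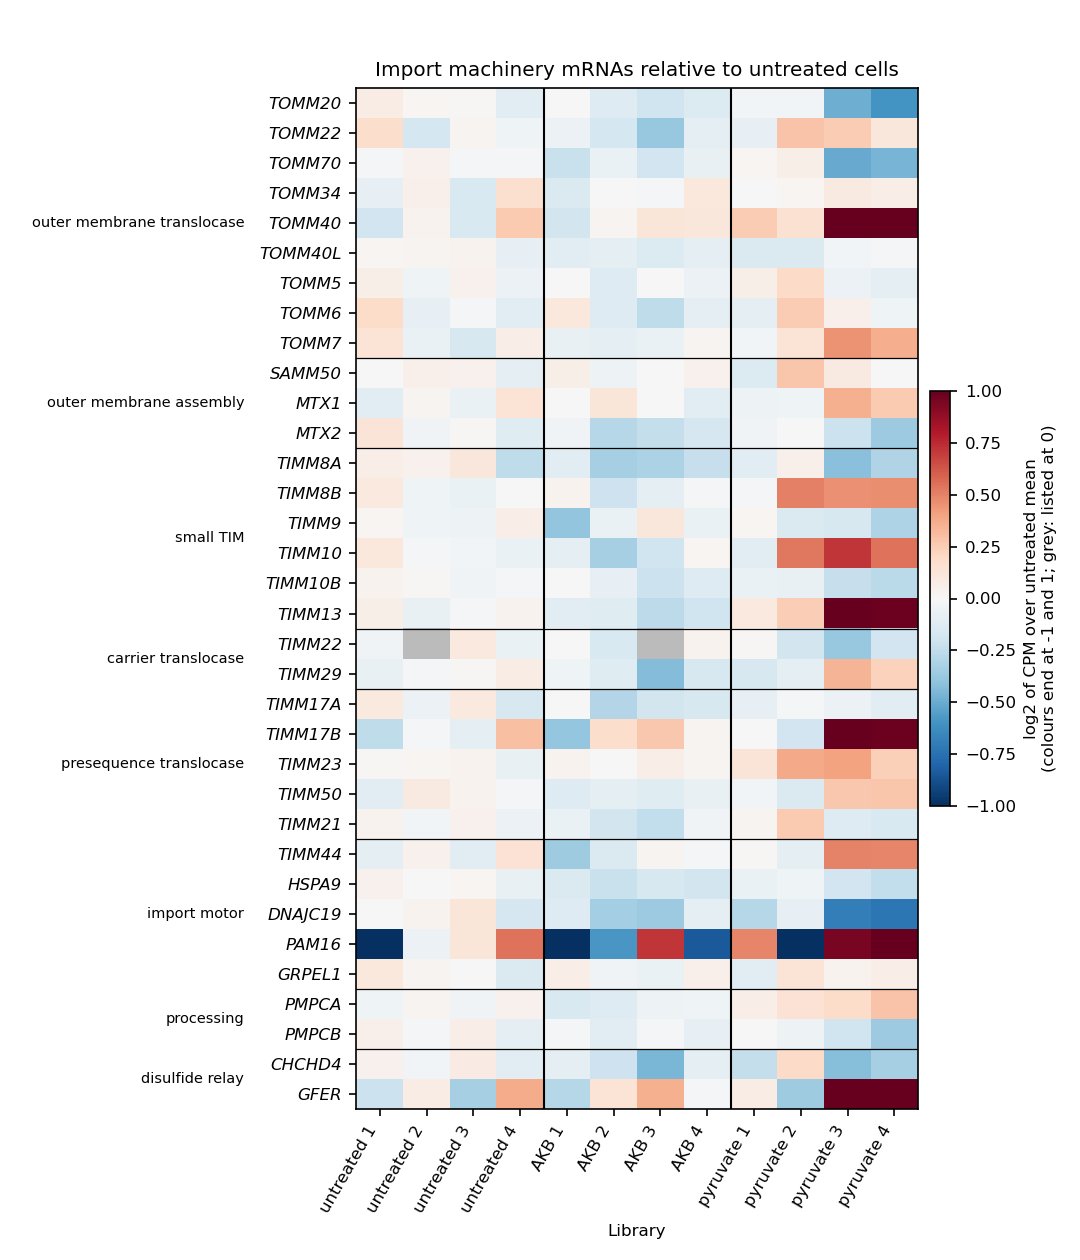
Heat map of the 34 import genes (rows, by role) in the 12 libraries (columns), coloured by log2 of CPM over the mean of the untreated libraries, with colours ending at -1 and 1. For TIMM22 that mean leaves out untreated replicate 2. TOMM40, TIMM13, TIMM17B, GFER and PAM16 have their highest values in pyruvate replicates 3 and 4, and TIMM22 is listed at 0 in untreated replicate 2 and AKB replicate 3 (grey).

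**Figure D2:**
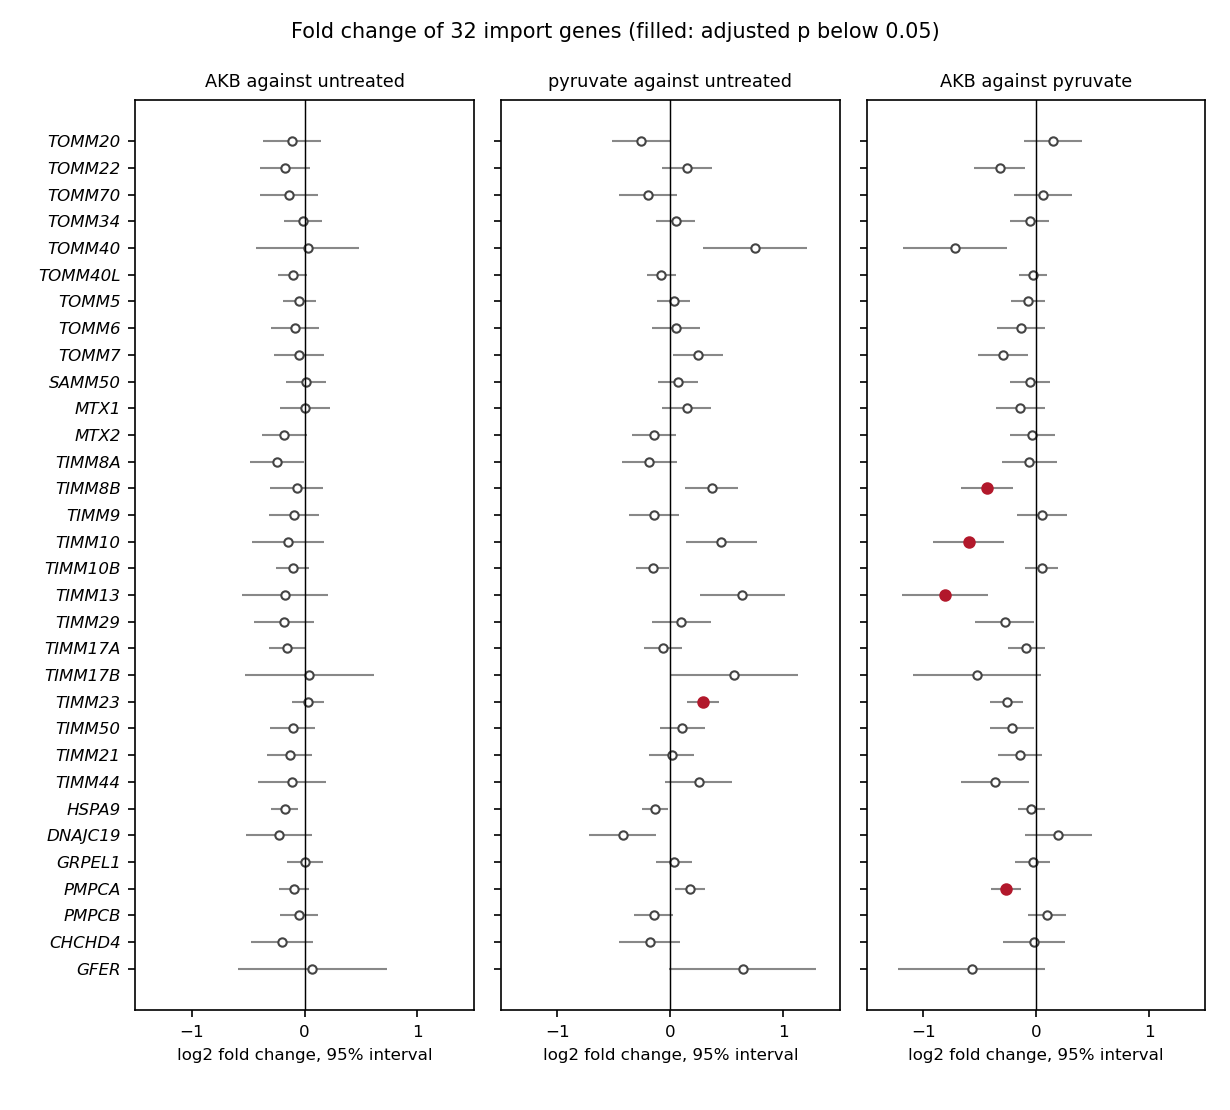
Log2 fold change with its 95% interval (horizontal lines) for 32 import genes in the 3 comparisons, without TIMM22 and PAM16, whose intervals run past the axis. Filled points had an adjusted p below 0.05, 1 for pyruvate against untreated and 4 for AKB against pyruvate.

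Among the 9 outer membrane genes, 0 were called in any comparison. TOMM20, the receptor for presequences, stood at 703, 675, 671 and 619 CPM in untreated replicates 1 to 4, at 671, 611, 582 and 608 CPM with AKB and at 655, 656, 475 and 441 CPM with pyruvate. The low values were those of pyruvate replicates 3 and 4, while the first pair of pyruvate libraries lay among the untreated ones. Its log2 fold change with pyruvate was -0.26 (SE 0.12, adjusted p = 0.168) and -0.025 without those libraries.

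TOMM70, the receptor that takes carrier precursors from cytosolic chaperones, showed 169, 175, 168 and 168 CPM untreated, 146, 162, 148 and 161 CPM with AKB and 173, 177, 120.0 and 123 CPM with pyruvate. All AKB libraries lay below all untreated ones, which held for 4 of the 34 genes (TOMM70, TOMM40L, TIMM13 and HSPA9) and for 8.41% of all genes. No import gene lay higher in all AKB libraries than in all untreated ones (8.74% of all genes). The difference of TOMM70 was -0.14 on the log2 scale (SE 0.12, adjusted p = 0.691). Without pyruvate replicates 3 and 4 in the fit it was again -0.14 (adjusted p = 0.0637). Overlap with LNP1 on the opposite strand leaves the share of reads of TOMM70 uncertain.

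TOMM22, the central receptor of the complex, was counted at 69.7, 54.6, 62.9 and 60.01 CPM untreated, 59.3, 54.8, 47.4 and 58 CPM with AKB and 58.5, 75.3, 73.8 and 66.9 CPM with pyruvate. Pyruvate replicates 2 and 3 were above all untreated libraries, and replicates 1 and 4 lay among them. AKB against pyruvate gave -0.32 (SE 0.10, adjusted p = 0.0917), which passed with the GC-content offset (adjusted p = 0.0255) and not without pyruvate replicates 3 and 4 (adjusted p = 0.2).

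TOMM40, the pore of the complex, had 109, 128, 112 and 149 CPM in untreated libraries, 109.9, 127, 135 and 135 CPM with AKB and 149, 139, 273 and 276 CPM with pyruvate. The last pair of pyruvate libraries was far above the other 10, and the first pair lay within the untreated range. Pyruvate against untreated gave a log2 fold change of 0.75 (SE 0.21, adjusted p = 0.0747), 0.51 with the GC-content offset (adjusted p = 0.025) and 0.21 without the last pair (adjusted p = 0.473). Its paralogue TOMM40L stood at 43.8, 43.9, 44.1 and 40.8 CPM untreated, 40.2, 40.6, 39.2 and 40.4 CPM with AKB and 39.1, 39.1, 42.4 and 42.7 CPM with pyruvate. The AKB libraries lay just below all untreated ones, by -0.11 on the log2 scale (SE 0.059, adjusted p = 0.476). Pyruvate against untreated gave -0.08 for TOMM40L (adjusted p = 0.357) and -0.14 without the last pair (adjusted p = 0.272). With the GC-content offset TOMM40L was called lower with pyruvate (log2 -0.18, adjusted p = 0.0307).

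Of the small subunits that hold the pore together, TOMM7 gave 0.24 with pyruvate (adjusted p = 0.146), TOMM5 0.029 (adjusted p = 0.788) and TOMM6 0.049 (adjusted p = 0.744). For TOMM7 the value was 0.36 with the GC-content offset (adjusted p = 0.0939) and 0.059 without pyruvate replicates 3 and 4 (adjusted p = 0.816). With AKB the 3 lay at -0.05, -0.046 and -0.086. TOMM5 was called higher with pyruvate only after the GC-content offset (log2 0.21, adjusted p = 0.0239). TOMM34, a cytosolic co-chaperone that binds precursors, was at -0.012 with AKB and 0.046 with pyruvate.

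The assembly machinery of the outer membrane, which inserts beta-barrel proteins such as the TOM pore, had 0 of 3 genes called. SAMM50, its barrel core, was at 59.7, 61.6, 61.4 and 55.6 CPM untreated, 62, 57.4, 59.6 and 61.3 CPM with AKB and 54.1, 72.3, 63.3 and 59.7 CPM with pyruvate. The groups overlapped, and the 95% interval with AKB ran from 0.891 to 1.14 as a fold. The metaxins MTX1 and MTX2, its partners on the cytosolic face, had log2 fold changes of 0.0039 and -0.18 with AKB and of 0.14 and -0.15 with pyruvate.

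Of the 6 small TIM genes, 3 were lower with AKB than with pyruvate, as were 1.19% of all genes, and 0 were called against untreated cells. TIMM13 (chr19:2425624-2427894, minus strand, GENCODE 29 on GRCh38) forms a hexamer with TIMM8A or TIMM8B. It stood at 55.2, 50.2, 52.2 and 54.2 CPM untreated, 49.3, 48.7, 44.1 and 46.1 CPM with AKB and 56.7, 62.8, 105 and 105 CPM with pyruvate. No AKB library reached an untreated or a pyruvate library, and the last pair of pyruvate libraries held the highest values. AKB against pyruvate gave a log2 fold change of -0.81 (SE 0.18, adjusted p = 0.0358), which remained past the threshold at -0.57 with the GC-content offset (adjusted p = 0.00487) and at -0.35 without the last pair (adjusted p = 0.0191). Pyruvate against untreated gave 0.64 (adjusted p = 0.0686), 0.29 with the GC-content offset (adjusted p = 0.0847) and 0.18 without the last pair (adjusted p = 0.263). All pyruvate libraries lay above all untreated ones, as for 3 of the 34 genes (TIMM13, TIMM23 and PMPCA) and for 4.89% of all genes. TIMM13 overlaps LMNB2 on its own strand and TMPRSS9 on the other, so its share of reads there is uncertain.

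TIMM10 (chr11:57528463-57530803, minus strand) forms the carrier chaperone with TIMM9. Its level was 24.4, 22.3, 22.2 and 21.7 CPM untreated, 21.2, 18, 19.7 and 23 CPM with AKB and 21.1, 32.6, 37.2 and 32.9 CPM with pyruvate. Pyruvate replicates 2, 3 and 4 lay above all other libraries, and replicate 1 was below all untreated ones. The difference between AKB and pyruvate was -0.60 (SE 0.15, adjusted p = 0.0484), -0.55 with the GC-content offset (adjusted p = 0.0141) and -0.39 without the last pair (adjusted p = 0.16). Pyruvate against untreated gave 0.45 (adjusted p = 0.0915), 0.39 with the offset (adjusted p = 0.068) and 0.24 without the last pair (adjusted p = 0.5). It passed with DESeq2's Wald test (adjusted p = 0.0277). AKB against untreated gave -0.15 for TIMM10 (adjusted p = 0.751). TIMM9 stood at 32.8, 31.5, 31.2 and 33.9 CPM untreated, 24.6, 30.9, 35 and 30.8 CPM with AKB and 32.7, 29.3, 28.9 and 26.1 CPM with pyruvate. Its groups overlapped, and AKB against pyruvate gave 0.054 (adjusted p = 0.762).

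TIMM8B (chr11:112084800-112086798, minus strand) shares TIMM13 as a partner with its paralogue TIMM8A, and its level was 46, 41.9, 41.1 and 43.1 CPM untreated, 44.1, 37.2, 40.2 and 42.6 CPM with AKB and 42.3, 60.8, 59.1 and 59.3 CPM with pyruvate. Replicate 1 of pyruvate lay among the untreated libraries and the other pyruvate libraries above them. AKB against pyruvate gave -0.43 (SE 0.11, adjusted p = 0.0495), -0.49 with the GC-content offset (adjusted p = 0.0137) and -0.33 without pyruvate replicates 3 and 4 (adjusted p = 0.145). Pyruvate against untreated gave 0.37 (adjusted p = 0.0785) and 0.26 without that pair (adjusted p = 0.358). It passed with the offset (log2 0.44, adjusted p = 0.0294) and with DESeq2's Wald test (adjusted p = 0.0161). AKB against untreated gave -0.069 (adjusted p = 0.855). TIMM8B overlaps SDHD and NKAPD1 on the opposite strand. The sources used here do not say whether the authors' counting used strand, so reads of such pairs cannot be told apart.

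TIMM8A, the X-linked gene of the Mohr-Tranebjaerg deafness and dystonia syndrome, stood at 42.8, 42, 44.2 and 34.3 CPM untreated, 37.9, 32.4, 32.8 and 34.9 CPM with AKB and 37.7, 42.3, 30.5 and 33.2 CPM with pyruvate. Untreated replicate 4 lay with the AKB libraries, so the groups overlapped. AKB against untreated gave -0.24 (SE 0.11, unadjusted p = 0.0476, adjusted p = 0.37), and pyruvate -0.19 (adjusted p = 0.267). TIMM10B, a small TIM bound to TIM22, had log2 fold changes of -0.11 with AKB and -0.16 with pyruvate (adjusted p = 0.152). It was the only import gene with all pyruvate libraries below all untreated ones, as were 6% of all genes.

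**Figure D3:**
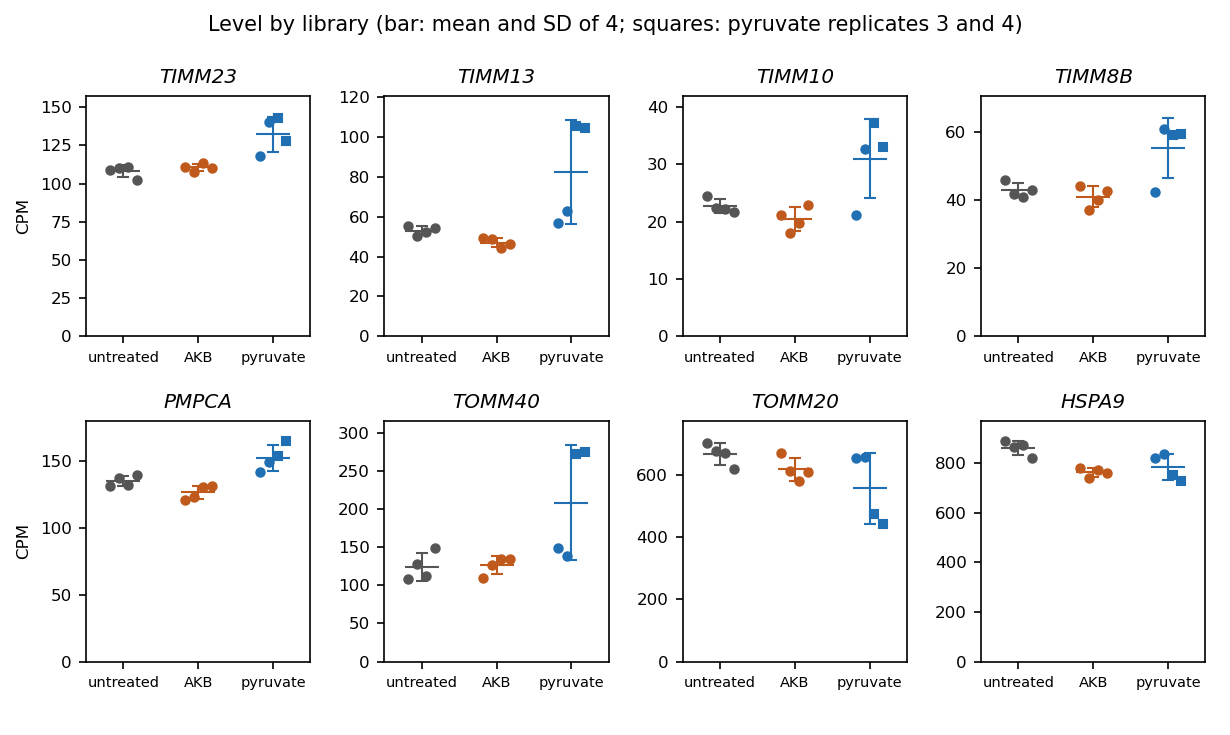
CPM of 8 import genes in each library, with the mean and SD of the 4 libraries of a group (bars) and squares for pyruvate replicates 3 and 4. TIMM10 and TIMM8B have 3 high pyruvate libraries, TIMM13 and TOMM40 have their highest values in the squares, and all AKB values of HSPA9 lie below the untreated ones.

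The channel of the carrier translocase, TIMM22, was listed at 0 in untreated replicate 2 and AKB replicate 3. Elsewhere it stood at 28.2, 31.1 and 27.6 CPM untreated, 28.9, 26.1 and 29.8 CPM with AKB and 29.2, 25.6, 22.3 and 25.3 CPM with pyruvate. The values above 0 were close in the 3 groups, and with the zeros the 95% interval of the log2 difference with AKB ran from -2.16 to 2.07, too wide to show a difference. TIMM29, a subunit of the same complex found in animals, gave -0.18 with AKB (adjusted p = 0.575) and 0.10 with pyruvate (adjusted p = 0.594).

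In the presequence translocase, 1 of 5 genes was called, higher with pyruvate than untreated, as were 1.02% of all genes. TIMM23 (chr10:45972449-46003734, plus strand) stood at 109, 109.9, 111 and 103 CPM untreated, 111, 108, 113 and 110.2 CPM with AKB and 118, 140.3, 143 and 128 CPM with pyruvate. Every pyruvate library lay above every untreated and AKB library, replicates 1 and 2 included, and the AKB libraries overlapped the untreated ones. Pyruvate against untreated gave 0.29 (SE 0.066, adjusted p = 0.0472), 0.31 with the GC-content offset (adjusted p = 0.00844) and 0.26 without pyruvate replicates 3 and 4 (adjusted p = 0.0954). AKB against untreated gave 0.031 (95% interval -0.11 to 0.18), and AKB against pyruvate -0.26 (SE 0.066, adjusted p = 0.0541). The near-identical copy TIMM23B was at 38.4 ± 2.19 CPM untreated and 37.8 ± 1.68 CPM with pyruvate (SD, n = 4), and how reads were split between the copies is uncertain.

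TIMM17A and TIMM17B are alternative partners of TIMM23 in the channel. TIMM17A stood at 226, 203, 226 and 189 CPM untreated, 212, 172, 186 and 189 CPM with AKB and 199.9, 209, 202 and 195 CPM with pyruvate. TIMM17B had 31.5, 37.2, 35.1 and 46 CPM untreated, 28.7, 42.2, 45 and 38.2 CPM with AKB and 37.4, 32.8, 77.5 and 73.8 CPM with pyruvate. The groups of TIMM17A overlapped, and TIMM17B was high in pyruvate replicates 3 and 4 alone. With pyruvate the log2 fold changes were -0.067 for TIMM17A and 0.57 for TIMM17B (adjusted p = 0.555 and 0.173), and that of TIMM17B was -0.092 without those libraries. TIMM17B overlaps PQBP1 on the opposite strand.

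TIMM50, the receptor that takes presequences from the TOM complex, was at 140.1, 161, 155 and 150.5 CPM untreated, 139, 142, 139.6 and 144 CPM with AKB and 149, 138, 183 and 184 CPM with pyruvate. Its AKB libraries lay around the lower end of the untreated range, with a log2 fold change of -0.11 (SE 0.091, adjusted p = 0.693), and the pyruvate libraries fell on both sides of it. TIMM21, which links the complex to the respiratory chain, gave -0.13 with AKB (adjusted p = 0.608) and 0.012 with pyruvate (adjusted p = 0.934).

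The import motor had 0 of 5 genes called. HSPA9, the mitochondrial HSP70 that pulls precursors into the matrix, stood at 887, 866, 874 and 821 CPM untreated, 779, 739.8, 771 and 759 CPM with AKB and 821, 836, 753 and 726 CPM with pyruvate. All AKB libraries were below all untreated ones, and the pyruvate libraries reached from the untreated range to below the AKB range. AKB against untreated gave -0.18 (SE 0.054, unadjusted p = 0.00592, adjusted p = 0.139), the smallest p of the 34 genes in that comparison. It passed the threshold with DESeq2's Wald test (adjusted p = 0.0218), with the GC-content offset (log2 -0.15, adjusted p = 0.0187) and without pyruvate replicates 3 and 4 (log2 -0.18, adjusted p = 0.00941). Of 12 fits that each left out 1 library, it passed in 0, with adjusted p from 0.0685 to 0.356. With the replicate number as a block it did not pass either (adjusted p = 0.168).

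TIMM44, which anchors HSP70 at the channel, was at 88.1, 96.9, 86.7 and 104 CPM untreated, 73.4, 85, 95.8 and 93.4 CPM with AKB and 94.5, 88.2, 132 and 132 CPM with pyruvate. It was high in pyruvate replicates 3 and 4, and AKB against untreated gave -0.11 (adjusted p = 0.807). With the GC-content offset that difference was -0.20 (adjusted p = 0.0421), past the threshold. DNAJC19, the J protein that stimulates HSP70, stood at 69.9, 71.8, 76.2 and 62.5 CPM untreated, 64.1, 55.5, 54.5 and 65.9 CPM with AKB and 57.6, 66.1, 43.3 and 42.4 CPM with pyruvate. Pyruvate replicates 3 and 4 were the lowest of all, and pyruvate against untreated gave -0.42 (SE 0.14, adjusted p = 0.0915) or -0.18 without them.

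PAM16, the J-like partner of that protein, varied more between libraries of a group than between groups, with 4.79, 9.36, 10.6 and 14.2 CPM untreated, 3.21, 6.48, 16 and 5.43 CPM with AKB and 13.6, 2.95, 18.8 and 19.7 CPM with pyruvate. It lies within the read-through gene CORO7-PAM16, so its share of reads is uncertain. GRPEL1, the nucleotide exchange factor of HSP70, stood at 73.6, 69.7, 68.2 and 62 CPM untreated, 71.6, 66.6, 65.4 and 70.9 CPM with AKB and 63.2, 75.3, 70.01 and 71.7 CPM with pyruvate. Its groups overlapped, and the 95% intervals of its fold were 0.899 to 1.12 with AKB and 0.918 to 1.14 with pyruvate.

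The presequence peptidase had 1 of 2 genes called, lower with AKB than with pyruvate, as were 1.19% of all genes. PMPCA (chr9:136410570-136423761, plus strand), the alpha subunit, binds the precursor, and it stood at 131, 137, 132 and 139 CPM untreated, 121, 123, 130.2 and 131 CPM with AKB and 141, 149, 153 and 165 CPM with pyruvate. Every pyruvate library was above every untreated and AKB library, while AKB and untreated libraries met at 131 CPM. AKB against pyruvate gave -0.27 (SE 0.06, adjusted p = 0.0406), -0.21 with the GC-content offset (adjusted p = 0.00558) and -0.20 without pyruvate replicates 3 and 4 (adjusted p = 0.0491). TOMM40, TIMM13, TIMM23 and PMPCA were the 4 import genes whose AKB and pyruvate libraries did not overlap, lower with AKB, as for 4.54% of all genes. No import gene was higher in all AKB libraries than in all pyruvate libraries (7.08% of all genes).

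PMPCB, the catalytic beta subunit, was at 155, 148, 157 and 140.3 CPM untreated, 148, 139.7, 149 and 142 CPM with AKB and 149.9, 145, 131 and 117 CPM with pyruvate. It was lowest in pyruvate replicates 3 and 4, and AKB against pyruvate gave 0.10 (adjusted p = 0.458). PMPCA overlaps ENTR1 and PMPCB overlaps DNAJC2, each on the opposite strand.

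For the disulfide relay, 0 of 2 genes were called. CHCHD4, the oxidoreductase that traps incoming precursors, stood at 60.6, 57.5, 62.2 and 54.5 CPM untreated, 55, 50.9, 42.9 and 55.1 CPM with AKB and 49.8, 66.9, 43.6 and 46.7 CPM with pyruvate. Pyruvate replicate 2 was the highest library, and the differences were -0.20 with AKB and -0.18 with pyruvate (adjusted p = 0.541 and 0.325). GFER, the oxidase that regenerates CHCHD4, had 15.2, 18.5, 14 and 22.9 CPM untreated, 14.5, 19.4, 22.6 and 17.5 CPM with AKB and 18.5, 13.8, 37.5 and 39.8 CPM with pyruvate. It was high in pyruvate replicates 3 and 4 alone, with a log2 fold change of 0.64 (adjusted p = 0.179) or -0.12 without them.

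The split of the pyruvate libraries followed transcript GC content within the machinery as it did across the transcriptome. The 34 genes ran from 38.7% GC (DNAJC19) to 63.6% (TIMM13), with a median of 47.5% against 48.1% for all genes tested. Of 14 members above 50% GC, 13 were higher in pyruvate replicates 3 and 4 than in 1 and 2, and of 20 at or below it, 15 were lower. Across the 34 genes the Spearman correlation between GC content and that difference was 0.80, given as a description, since genes of the same libraries are not independent. The difference was 1.27 for GFER, 0.93 for TOMM40 and -0.52 for DNAJC19 on the log2 scale, but only 0.07 for TIMM23 and 0.13 for PMPCA.

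**Figure D4:**
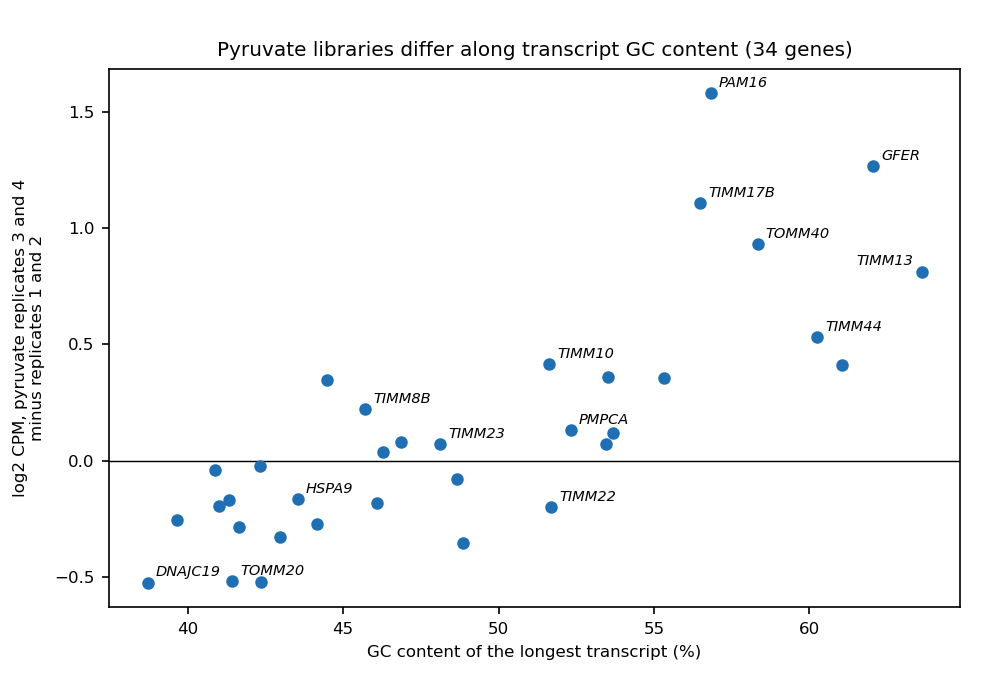
Log2 CPM of pyruvate replicates 3 and 4 minus replicates 1 and 2 (vertical axis) against GC content of the longest transcript in percent (horizontal axis) for the 34 import genes (points). Of the 14 genes above 50% GC, 13 lie above 0, and TIMM22 is the exception.

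Levels can be compared between genes only per length of transcript. In untreated cells TOMM6 was the most abundant of the machinery at 399 ± 37.2 CPM per kilobase of its longest transcript (SD, n = 4), which is under 1 kilobase long. TOMM6 overlaps AL365205.1 on its own strand and USP49 on the other, so its share of reads and its rank are uncertain. TOMM20 at 197 ± 10.4 and HSPA9 at 182 ± 6.10 CPM per kilobase followed, and their ranges over libraries overlapped (183 to 208 and 174 to 188). TIMM23 at 88.5 ± 3.13 and TIMM17A at 83.7 ± 7.27 CPM per kilobase came next, also with overlapping ranges. At the low end PAM16 stood at 12.1 ± 4.80 and GFER at 7.53 ± 1.69 CPM per kilobase, and TIMM22 below 10 in each library. The 34 genes' median level per kilobase lay at the 85.1 percentile of all genes tested.

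Ratios within a library show unequal change of paralogues and partners. For 6 pairs and 3 comparisons, 18 two-sided exact permutation tests on the log2 ratio were made, in which 4 against 4 libraries allow no p below 0.0286. GRPEL1 over its paralogue GRPEL2 was 0.847, 0.769, 0.774 and 0.777 in the untreated libraries, 0.952, 1.02, 1.01 and 0.996 with AKB, and 0.969, 1.19, 1.34 and 1.28 with pyruvate. All treated libraries lay above all untreated ones. The log2 difference was 0.33 with AKB and 0.58 with pyruvate (exact p = 0.0286 each, adjusted p = 0.129 over the 18 tests), so it did not pass after adjustment. A pair could pass only if most of the 18 tests stood at the smallest p, so the adjusted values decide little. With the GC trend removed the differences were 0.30 and 0.41 (exact p = 0.0286 each). Without pyruvate replicates 3 and 4 that of pyruvate was 0.44 (exact p = 0.0667, the smallest that the remaining libraries allow).

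PMPCA over PMPCB was 0.844, 0.927, 0.839 and 0.991 untreated, 0.816, 0.882, 0.874 and 0.922 with AKB, and 0.943, 1.03, 1.17 and 1.41 with pyruvate. AKB lay below pyruvate in all libraries, by -0.37 on the log2 scale (exact p = 0.0286, adjusted p = 0.129), and by -0.15 with the GC trend removed (exact p = 0.143). Without pyruvate replicates 3 and 4 that difference was -0.17 (exact p = 0.0667, the smallest that the remaining libraries allow). TOMM40 over TOMM40L differed between AKB and pyruvate by -0.63 (exact p = 0.0286, adjusted p = 0.129). The difference was -0.57 with the GC trend removed (exact p = 0.0286) and -0.22 without pyruvate replicates 3 and 4 (exact p = 0.133). The remaining pairs, TIMM17A over TIMM17B, TIMM8A over TIMM8B and TIMM9 over TIMM10, had exact p-values of 0.0571 to 0.771.

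**Figure D5:**
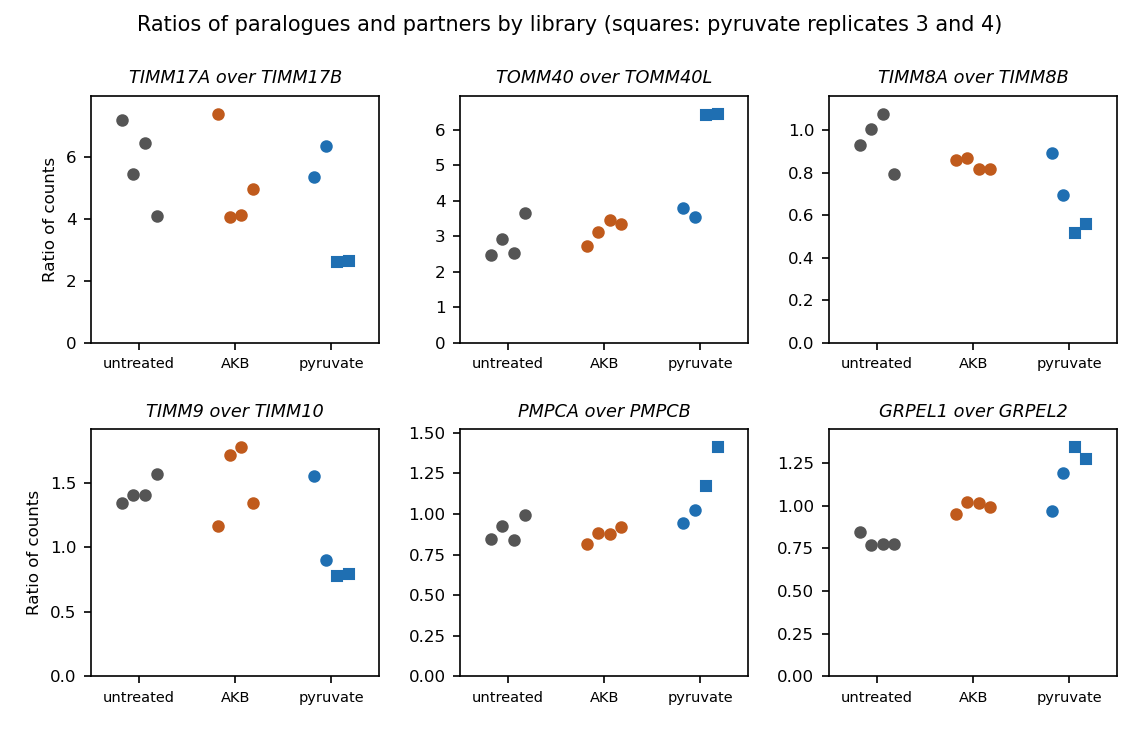
Ratio of counts for 6 pairs of paralogues or partners (vertical axes) in each library, with squares for pyruvate replicates 3 and 4. GRPEL1 over GRPEL2 lies between 0.769 and 0.847 in untreated libraries and between 0.952 and 1.34 in treated ones.

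Lists around the machinery were read in the same fit. Of all genes, that fit called 1.37% higher and 0.603% lower with AKB, and 1.02% and 0.927% with pyruvate. For AKB against pyruvate the shares were 1.94% and 1.19%. Of 18 other import genes 17 were measured and tested, with 0 called with AKB, 0 higher and 1 lower with pyruvate, and 0 higher and 1 lower for AKB against pyruvate (medians -0.087, 0.0051 and -0.052). GRPEL2, the stress-responsive paralogue of GRPEL1, stood at 86.9, 90.6, 88.2 and 79.8 CPM untreated, 75.2, 65.1, 64.5 and 71.2 CPM with AKB and 65.2, 63.2, 52.1 and 56.1 CPM with pyruvate. All treated libraries lay below all untreated ones. It fell by 0.55 on the log2 scale with pyruvate (SE 0.083, adjusted p = 0.00966), which held with the GC-content offset (log2 -0.32, adjusted p = 0.00942) and without pyruvate replicates 3 and 4 (log2 -0.43, adjusted p = 0.0251). With AKB the difference was -0.32 (adjusted p = 0.0763), past the threshold with the GC-content offset (adjusted p = 0.0129) and without that pair (adjusted p = 0.00714). PITRM1, which degrades cleaved presequences, was lower with AKB than with pyruvate at 83.1 ± 2.57 against 99.2 ± 2.09 CPM (SD, n = 4, log2 -0.26, adjusted p = 0.0386). That difference was -0.23 with the GC-content offset (adjusted p = 0.00726) and -0.26 without pyruvate replicates 3 and 4 (adjusted p = 0.0297).

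Of 7 genes of MICOS, the complex that shapes the cristae, 0 were called with AKB and 1 rose with pyruvate. CHCHD3 went from 123, 118, 122 and 125 CPM untreated to 143, 165, 166 and 160.5 CPM with pyruvate, and stood at 119, 122, 131 and 135 CPM with AKB. Every pyruvate library exceeded every other library. The rise was 1.30-fold (adjusted p = 0.0206), or log2 0.38. It was log2 0.43 with the GC-content offset (adjusted p = 0.00319) and 0.34 when pyruvate replicates 3 and 4 were left out (adjusted p = 0.0463). AKB lay lower than pyruvate (log2 -0.32, adjusted p = 0.0265). That difference was -0.36 with the offset (adjusted p = 0.00492) and -0.28 without the pair (adjusted p = 0.0404). The list's medians were -0.044 with AKB and 0.016 with pyruvate.

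Among 13 mitochondrial chaperones and proteases, 0 were called with AKB, 1 rose with pyruvate and 1 was lower with AKB than with pyruvate. Both calls were HSPE1, the co-chaperonin that caps HSP60, at 111, 109, 104 and 112 CPM untreated, 105, 101, 114 and 111 CPM with AKB and 127, 148, 174 and 169 CPM with pyruvate. All pyruvate libraries were above the others. Against untreated cells the rise was 1.42-fold (adjusted p = 0.0206), with log2 0.51. It was log2 0.48 with the GC-content offset (adjusted p = 0.00424) and 0.34 once pyruvate replicates 3 and 4 were left out (adjusted p = 0.0515). For AKB against pyruvate HSPE1 gave log2 -0.52 (adjusted p = 0.014). That was -0.50 with the offset (adjusted p = 0.00212) and -0.36 without the pair (adjusted p = 0.0191). HSPD1, the HSP60 it caps, did not pass (log2 -0.18 with AKB, adjusted p = 0.159, and -0.094 with pyruvate, adjusted p = 0.267). With AKB it passed with the GC-content offset (log2 -0.15, adjusted p = 0.0113) and without pyruvate replicates 3 and 4 (log2 -0.18, adjusted p = 0.01), as HSPA9 did.

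None of 6 cytosolic chaperones that carry precursors was called in the 3 comparisons. The 2 smallest adjusted p were those of HSP90AB1 and HSPA8 for AKB against pyruvate (log2 -0.12 and -0.21, adjusted p = 0.116 and 0.171). Without pyruvate replicates 3 and 4, 4 of the 6 were lower with AKB than with pyruvate, as were 1.84% of all genes. With the GC-content offset 3 were lower, and 7.41% of all genes. Of 10 regulators of mitochondrial gene expression 9 were tested, and 1 fell with each acid. That was ATF4, the transcription factor of the amino acid response, at 356, 332, 333 and 344 CPM untreated, 240.3, 247, 238 and 239 CPM with AKB and 230.1, 249, 282 and 276 CPM with pyruvate. The changes were -0.50 with AKB (adjusted p = 0.0023) and -0.40 with pyruvate (adjusted p = 0.0174). That with pyruvate was -0.56 with the GC-content offset (adjusted p = 6.35e-05) and -0.51 without pyruvate replicates 3 and 4 (adjusted p = 0.000392). NRF1 and GABPA, which bind promoters of many mitochondrial genes, did not pass, at -0.14 and -0.23 with AKB (adjusted p = 0.409 and 0.619). Without pyruvate replicates 3 and 4 GABPA passed with AKB (log2 -0.23, adjusted p = 0.0201). In that fit 3 of the 9 regulators were lower with AKB (4.31% of all genes), as were 3 with the GC-content offset (3.82%).

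Promoters of the machinery were searched for short motifs of these factors, on both strands, in the 250 bases before each RefSeq start (GRCh38.p14). Of the 34 genes 31 had an entry, and GRPEL1, TIMM8B and TOMM5 are only named. The GABP-type motif CCGGAAG stood in 9 of 31 members (29%) and in 19.6% of 9938 tested genes. The core motif of NRF1 (GCGCA, any base, then GCGC, on either strand) stood in 7 (22.6% against 12.3%), the YY1 motif AAGATGGC in 1 (3.2% against 2.4%) and the ATF4-type motif TTGCATCA in 2 (6.5% against 0.6%). A match is a stretch of letters and not a bound site. The windows of 30 bases below, 5′ to 3′ on the gene's strand with the motif in capitals, come from called genes (TIMM10, TIMM13, TIMM23) and, for comparison, from TOMM20, which was not called, and from both genes with the ATF4-type motif (PMPCB and TIMM22). In TIMM13 and TIMM23 the GABP-type motif reads on the other strand.
TIMM10 (chr11:57530791-57530820, minus strand): ggtatttaattCCGGAAGcgagtttgaatc
TIMM10 (chr11:57530755-57530784, minus strand): gaggcgggactttcctcCCGGAAGtaaccc
TIMM13 (chr19:2427587-2427616, minus strand): gtggtgccccgggcggcccgCTTCCGGcgc
TIMM23 (chr10:45972430-45972459, plus strand): ggcgcttccagCTTCCGGggcgcacattgc
TOMM20 (chr1:235128841-235128870, minus strand): gttgactgggaCCGGAAGtggcgtgtgctc
TOMM20 (chr1:235128919-235128948, minus strand): ttcgcccactGCGCAGGCGCaggagccgcg
PMPCB (chr7:103297185-103297214, plus strand): aTTGCATCAggttacctttcattccaccgc
TIMM22 (chr17:997036-997065, plus strand): cgaatctgccgTTGCATCAcagtggctagt

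The GABP-type motif, found in 9 of 31 members (29%) and in 19.6% of tested genes, stood in 3 of the 4 called genes with an entry, PMPCA being the other. It also stood in 6 members that were not called (PMPCB, TIMM10B, TIMM29, TOMM6, TOMM20 and TOMM70). So few called genes cannot show a link between motif and call, and none was tested. Of the 2 members with the ATF4-type motif, PMPCB gave -0.053 with AKB and -0.15 with pyruvate (adjusted p = 0.845 and 0.215), and TIMM22, with its libraries at 0, -0.041 (95% interval -2.16 to 2.07) and 0.23 (-1.87 to 2.33), too wide to place it.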

How the data were processed

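Poly(A) RNA of K562 cells was sequenced from 12 libraries, 4 per group. Gene-level estimated counts were deposited, and the submitters' processing notes name Salmon 1.2.1, DESeq2 1.26.0 and R 3.6.3. Settings, annotation, genome build and strand were not given in the sources used here. Comparisons deposited by the authors give a log2 fold change and a p-value per gene, per the file headers, and other columns of these tables were not used.

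The counts were whole as deposited, and rounding changed none. Symbols were matched by Ensembl identifier for 16933 of 17786 genes (95.2%), with GC content, length and coordinates from GENCODE 29 on GRCh38 (longest transcript). Genes were kept by edgeR's filterByExpr (minimum count 10). After TMM scaling, the quasi-likelihood test of edgeR 4.0.16 (R 4.3.3, limma 3.58.1) took all 12 libraries in 1 model of the 3 groups, with Benjamini-Hochberg adjustment over 13598 genes. It was tested on simulated data. Adjusted p-values of genes are its own unless another tool is named, and 95% intervals use its degrees of freedom. CPM are on TMM-scaled library sizes, and their mean ± SD is over 4 libraries. The GC-content offset used a lowess span of 0.3. Two-sided exact permutation tests of pair ratios ran over 70 assignments of 8 libraries, with 0.5 added to counts.

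Alternatives were DESeq2 1.42.0's Wald test and its size factors, library size alone, no filter, a mean of at least 1 CPM, the replicate number as a block, the GC-content offset, each contrast's 8 libraries alone, no pyruvate replicates 3 and 4, and each library left out. No library pair of a group agreed within sampling noise (chi-square per gene 4.35 to 68.1). The members, lists, markers and alternatives were chosen with earlier results of these data known. All members are accounted for. Every library's value is given for members called and for the main subunits of each complex. Of each related list, the members called, or otherwise up to 2 with the smallest adjusted p, are named. TIMM23B, HSPD1, NRF1, GABPA and TOMM40L, DNAJC19, PAM16 and GRPEL1 with all values lie outside this rule and were chosen after values were seen.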

Additional observations from a re-analysis of the deposited data

Results flagged for a closer look

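Of 102 groups of 4 libraries (34 genes in 3 groups), 5 held a library whose gap to the nearest of the others, as a share of the group's range, was above Dixon's 95% critical value, and chance alone singles out about 1 in 20 groups. TIMM22 was listed at 0 CPM in untreated replicate 2, against 27.6 to 31.1 CPM in the other untreated libraries, and at 0 CPM in AKB replicate 3, against 26.1 to 29.8 CPM in the other AKB libraries. TIMM8B stood at 42.3 CPM in pyruvate replicate 1, against 59.1 to 60.8 CPM in the other pyruvate libraries. TOMM70 stood at 175 CPM in untreated replicate 2, against 167 to 169 CPM, and TOMM40L at 40.8 CPM in untreated replicate 4, against 43.8 to 44.1 CPM.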

How the results depend on the processing

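Total counts were 15353200 to 21301073, with 4 libraries a group. The 95% interval reached past a 1.5-fold change in 1 direction or both for 4 of the 34 members with AKB and 9 with pyruvate, among them TIMM22 with its libraries at 0, PAM16 and members that pyruvate replicates 3 and 4 set apart. The part of depth in this was not tested. Results for single members reversed in no called case. The member medians ran from -0.11 to -0.091 with AKB, from -0.013 to 0.12 with pyruvate and from -0.17 to -0.066 for AKB against pyruvate over all alternatives.

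For AKB against untreated, 0 members were higher under every alternative. Members lower numbered 1 with DESeq2's Wald test (genes higher and lower 343 and 196), 2 with the GC-content offset (628 and 520), 1 with the 8 libraries alone (709 and 630) and 1 without pyruvate replicates 3 and 4 (677 and 601). For pyruvate against untreated, members higher and lower numbered 6 and 1 with DESeq2 (genes 1119 and 745) and 4 and 1 with the GC-content offset (734 and 556). They numbered 0 and 0 with the 8 libraries alone (2 and 14), without pyruvate replicates 3 and 4 (21 and 78) and without a filter (73 and 79). With library size alone 0 were higher, and the genes called in that fit are not given here. For AKB against pyruvate, 0 members were higher throughout, and those lower numbered 8 with DESeq2 (genes higher and lower 648 and 893), 11 with the GC-content offset (973 and 1008), 0 with the 8 libraries alone (6 and 0), 2 without pyruvate replicates 3 and 4 (lower genes 257), 1 without a filter (145 and 69) and 1 with library size alone (lower genes 93). Fewer libraries enter the fits of 8 libraries and those without pyruvate replicates 3 and 4. For AKB against untreated both called more genes than the main edgeR fit did (186 higher and 82 lower). For pyruvate against untreated both called fewer (139 higher and 126 lower in the main edgeR fit). The cause of the shifts was not tested.

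Leaving out 1 library moved the count of members higher with pyruvate between 0 and 7 and of members lower between 0 and 4. The call of TIMM23 was lost without any 1 of 10 libraries and kept without pyruvate replicate 1 or 2. Members lower with AKB than with pyruvate ran from 0 to 8, with 0 left when any library other than pyruvate replicate 1 or 2 was dropped. With AKB against untreated both counts stayed at 0. All genes higher ran from 57 to 250, 1 to 1931 and 61 to 922 in the 3 comparisons as named above, and all genes lower from 34 to 107, 31 to 1680 and 7 to 1189. The medians ran from -0.11 to -0.091, 0.024 to 0.12 and -0.16 to -0.066.

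The replicate numbers did not pair the libraries, as correlations of same-numbered libraries ran from -0.1 to 0.20 and not every library correlated best with its own number. With the number as a replicate block, 0 members were called with AKB (genes higher and lower 111 and 47) and 2 were higher with pyruvate (306 and 259). For AKB against pyruvate 1 was lower, and the genes called in that fit are not given here, so no share stands beside it. With the block and the GC-content offset, 1 member was lower with AKB (508 and 422), 4 were higher and 1 lower with pyruvate (803 and 632), and 10 were lower for AKB against pyruvate (939 and 1035).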

Other observations

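The authors' own comparisons gave other values for some members than their counts. In the authors' deposited table for pyruvate and untreated cells, 6 members were higher and 4 lower with pyruvate (7.14% and 4.88% of genes with an adjusted p). In the authors' deposited table for AKB and untreated cells 0 members passed in either direction (2.73% of genes were higher with AKB and 2.16% lower), and in that for AKB and pyruvate 0 were higher and 8 lower with AKB (4.32% and 5.73%). PMPCA, called on the counts, was not among those 8, at -0.096 in the authors' deposited table (adjusted p = 0.66) and at -0.28 by DESeq2 on the counts.

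For pyruvate against untreated the log2 fold change of the authors' deposited table differed from DESeq2's estimate on the deposited counts by more than 0.2 for 5 of 34 members (14.7%) and for 21.4% of all genes. HSPA9 was at -0.56 in the authors' deposited table (adjusted p = 0.00208) and at -0.12 by DESeq2 on the counts. TIMM50 was at -0.32 in the authors' deposited table (adjusted p = 0.00413) and at 0.12 on the counts, so that the sign differed. GRPEL1 was at 0.32 in the authors' deposited table (adjusted p = 0.00823) and at 0.049 on the counts. TIMM23 was at 0.29 in the authors' deposited table (adjusted p = 0.00211) and at 0.31 on the counts. TIMM13 was at 0.85 in the authors' deposited table (adjusted p = 0.00497) and at 0.66 on the counts. For AKB against untreated no member and 10.1% of all genes differed from the authors' deposited table by that much. For AKB against pyruvate 5 of 34 members (14.7%) and 18.7% of all genes did. TIMM50 was at 0.14 in the authors' deposited table (adjusted p = 0.337) and at -0.23 on the counts, and HSPA9 at 0.19 in the authors' deposited table (adjusted p = 0.437) and at -0.057 on the counts, so that both signs differed. The cause of these gaps was not tested.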
